A study of Homo sapiens with 10 samples.

Results

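The genes of the matrix metalloproteinase (MMP), ADAM and ADAMTS families and their inhibitors, the TIMPs, were described in human retinal pigment epithelial cells labelled as CCAR1 knockout and in their parental cells. They were taken by name, as every row whose gene name was MMP, ADAM or ADAMTS followed by a number, or TIMP1 to TIMP4. This gave 68 rows of the 62700 in the table, under 67 names, since ADAM6 had 2 rows. They were 22 MMP genes, 23 ADAM rows, 19 ADAMTS genes and 4 TIMPs. RNA was sequenced from 5 samples of CCAR1 knockout RPE p53-/- cells and 5 samples of parental RPE p53-/- cells. Both genotypes therefore lack p53, and both were grown in DMEM/F12 medium with serum. The labels do not say whether the knockout cells were a single clone or whether replicates were separate cultures, so the p-values below reflect only how these samples vary, and that variation may be technical. A difference between these cell populations cannot be told apart from an effect of the knockout.

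MMPs are zinc proteases, secreted or held at the cell surface, that cut collagens, laminins and other proteins of the extracellular matrix. They are made as inactive precursors: pro-MMP2 is activated at the surface by MMP14, with TIMP2 acting as the bridge between them. ADAMs are membrane proteins, and those with an active protease release the outer parts of other membrane proteins, whereas ADAMTS enzymes are secreted and cut proteoglycans, procollagens and other matrix proteins. TIMPs bind the active site of these enzymes, and the retinal pigment epithelium is known as a source of TIMP3, which is laid down in the membrane beneath it.

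Library totals were 52.6 to 65.2 M counts (1 M is 1000000) for replicates 1 to 3 of each genotype and 320.6 to 385.4 M for replicates 4 and 5, called shallow and deep here. Levels are counts per 1000000 (CPM) of the TMM-scaled total of the genes tested, and every mean ± SD has n = 5 and includes the difference between the depths. CCAR1 was 92.3, 95.6, 88.5, 126 and 126 CPM in the knockout libraries, against 125, 133, 134, 173 and 173 CPM in the parental ones (log2 fold change -0.48 ± 0.14, SE; edgeR adjusted p = 0.0201), so its transcript was lower but present in every knockout library. That call was lost without parental replicate 5 (adjusted p = 0.0504), with library size alone as scaling (0.0525) and with the median of each chromosome removed (0.121; chromosome 10 had a median log2 fold change of -0.18). Of 10 markers of retinal pigment epithelium the summed level was 54.6 to 70.4 CPM in knockout and 51.1 to 62.8 CPM in parental libraries, and none was at 0 in all libraries. MITF and OTX2 held most of it, while RPE65, the defining isomerase of the visual cycle, had too few counts to test, like TYRP1 and RLBP1, and was at 0.0558 CPM or less in knockout and 0.189 CPM or less in parental libraries. Skeletal muscle markers summed to 203 to 448 CPM in the shallow knockout and 346 to 509 CPM in the shallow parental libraries, but to 0.318 CPM or less and 0.354 CPM or less in the deep libraries of these genotypes. Erythroid and liver markers followed the same split by depth. Myeloid markers summed to 8.50 to 12.0 CPM in shallow and 5.93 to 6.05 CPM in deep knockout libraries, against 4.64 to 8.12 and 1.76 to 1.92 CPM in the parental ones, and CSF1R held most of this in the deep libraries, with MPO, ELANE, ITGAM and CD14 under 0.3 CPM in each library. CSF1R was itself called higher in knockout cells (log2 fold change 1.94, edgeR adjusted p = 2.78e-07). LYZ and PTPRC had log2 fold changes of -0.54 and -0.56 and did not pass (edgeR adjusted p = 0.818 and 0.694). The part of these markers in the results was not tested. For most genes called, fold changes are given within both depths beside the pooled value. In such bulk samples fewer cells of a type and less RNA per cell cannot be told apart.

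Promoter windows are shown for members that moved in opposite directions or strongly, as the sequence around their start sites. They are RefSeq windows on GRCh38.p14, from 250 bases before to 50 after a gene's start, written in the direction of transcription; 38 of the 67 names had one. ADAMTS2 (chr5:179345412-179345711, minus strand) and ADAMTS14 (chr10:70672256-70672555, plus strand) encode procollagen N-proteinases that rose most among the ADAMTS genes, and capitals mark GC boxes, GGGCGG or its complement CCGCCC, the motif bound by SP1; adjoining matches can overlap.
ADAMTS2: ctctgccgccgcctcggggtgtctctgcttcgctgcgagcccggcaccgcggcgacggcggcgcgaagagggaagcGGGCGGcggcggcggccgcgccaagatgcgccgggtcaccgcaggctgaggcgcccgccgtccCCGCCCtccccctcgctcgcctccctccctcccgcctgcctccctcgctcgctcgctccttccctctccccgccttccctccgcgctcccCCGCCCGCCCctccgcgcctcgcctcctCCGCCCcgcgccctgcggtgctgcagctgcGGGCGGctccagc
ADAMTS14: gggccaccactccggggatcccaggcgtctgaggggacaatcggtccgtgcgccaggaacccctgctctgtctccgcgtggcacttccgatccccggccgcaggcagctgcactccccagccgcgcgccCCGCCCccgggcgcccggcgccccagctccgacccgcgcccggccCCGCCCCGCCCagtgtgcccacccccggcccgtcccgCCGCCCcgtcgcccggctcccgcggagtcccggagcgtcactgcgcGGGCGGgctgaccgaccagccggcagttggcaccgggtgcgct
TIMP1 (chrX:47582186-47582485, plus strand) rose and TIMP3 (chr22:32801455-32801754, plus strand) fell, and capitals again mark GC boxes.
TIMP1: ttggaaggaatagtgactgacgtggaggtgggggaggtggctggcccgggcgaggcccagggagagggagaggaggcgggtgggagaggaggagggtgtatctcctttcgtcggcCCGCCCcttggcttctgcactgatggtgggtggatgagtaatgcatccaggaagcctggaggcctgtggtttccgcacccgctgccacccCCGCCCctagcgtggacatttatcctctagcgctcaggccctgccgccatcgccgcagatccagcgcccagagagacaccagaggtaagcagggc
TIMP3: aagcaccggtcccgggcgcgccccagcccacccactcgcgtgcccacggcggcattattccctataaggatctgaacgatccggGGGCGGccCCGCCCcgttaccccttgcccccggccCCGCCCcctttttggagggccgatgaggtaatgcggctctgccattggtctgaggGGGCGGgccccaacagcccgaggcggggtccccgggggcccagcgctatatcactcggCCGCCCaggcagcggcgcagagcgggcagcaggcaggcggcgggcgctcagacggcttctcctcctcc
MMP10 (chr11:102780579-102780878, minus strand), a stromelysin gene next to MMP1, is shown as the contrasting kind of window, with an AP-1 match (TGANTCA, either strand, at -67) and a TATA box (TATAAA on the gene's strand, at -31) in capitals.
MMP10: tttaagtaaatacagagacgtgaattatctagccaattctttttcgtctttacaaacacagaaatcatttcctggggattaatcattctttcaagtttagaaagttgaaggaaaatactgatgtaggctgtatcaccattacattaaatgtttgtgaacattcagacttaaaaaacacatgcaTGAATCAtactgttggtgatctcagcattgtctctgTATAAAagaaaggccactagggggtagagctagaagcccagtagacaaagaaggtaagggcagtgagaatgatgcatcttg
Bases that are G or C made up 80.3% of the ADAMTS2 window and 79.7% of that of ADAMTS14, against 36.3% for MMP10. A GC box stood in 25 of 39 windows of members (64.1%), against 45% of all 35116 windows. An AP-1 match stood in 4 of the 39 member windows (10.3%), those of MMP7, MMP10, MMP20 and ADAMTS12, and in 7.71% of all windows. MMP1, MMP2, MMP3, ADAMTS1, ADAMTS5 and TIMP2 were among the names without a window, so their promoters were not searched. Such a match is a description of the letters and not a site of binding.

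Of the 68 rows, 43 had enough counts to be tested, and at an adjusted p under 0.05 20 were higher and 6 lower in knockout cells, while 17 did not pass. That is 60.5% of the members tested, against 36.6% of all 18979 genes tested with the same filter (19.7% higher and 16.9% lower). The ranges of the genotypes were apart for 23 of the 43 members tested, against 30.6% of all genes tested. Ranges that are apart fix the p of an exact two-sided permutation test of 5 against 5 libraries at its smallest value (0.00794). That p therefore adds nothing to the count of ranges apart. The filter can favour members that were high in 1 genotype: MMP3, MMP11, MMP21, MMP28 and ADAMTS13 were over its minimum of 0.163 CPM in every knockout but not in every parental library, and no member showed the opposite. When replicate number was fitted as a block, 28 members were higher and 10 lower, against 61.2% of all genes called in that fit.

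**Figure D1:**
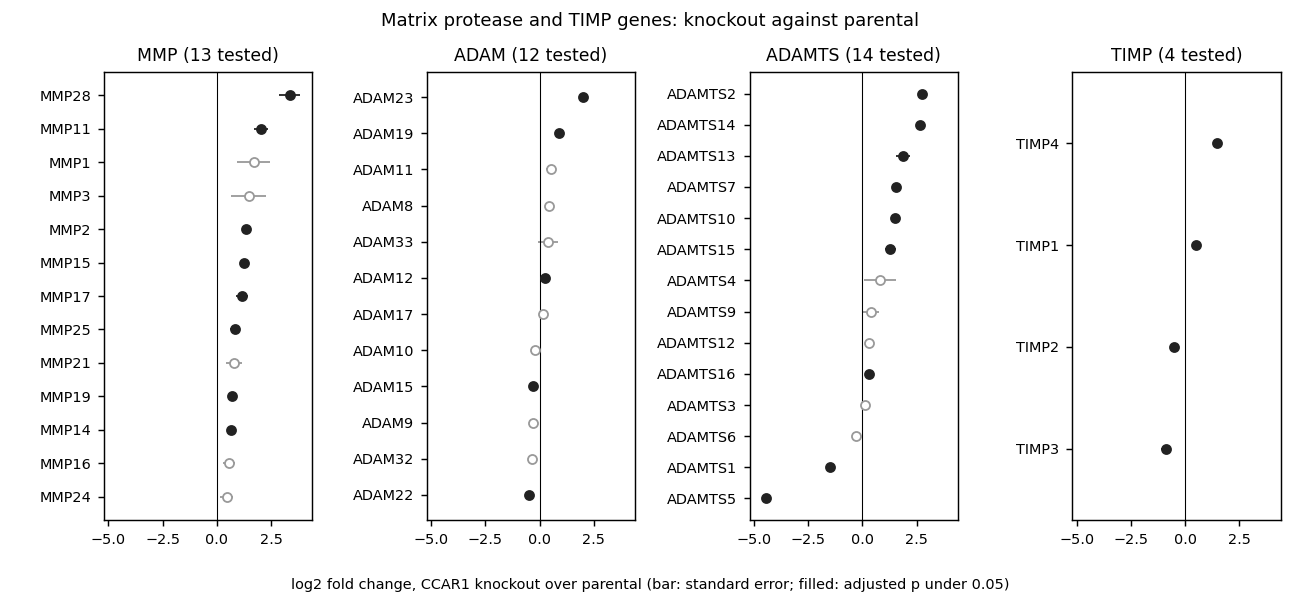
Log2 fold change of knockout over parental cells for the 43 members tested, by family, with standard errors as bars and filled points for an adjusted p under 0.05. The 13 MMP genes all lie to the right of 0, the ADAM genes lie on both sides, and ADAMTS5 at -4.44 lies farthest to the left.

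Of 13 MMP genes tested, 8 rose, none fell and 5 did not pass, against 36.6% of all genes called. With the replicate block 12 were higher and MMP24 did not pass, against 61.2% of all genes. These counts include MMP3, MMP11, MMP21 and MMP28, which met the filter's minimum in every knockout but not every parental library, so they are a description. The summed level of the family was 1698 to 2232 CPM in knockout and 839 to 1004 CPM in parental libraries. Most of it was MMP2.

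MMP2 (gelatinase A, chr16:55389700-55506691, hg38), which cuts denatured collagen and basement membrane collagen, was 1637, 1606, 1599, 1223 and 1175 CPM in the knockout libraries, against 624, 589, 614, 529 and 511 CPM in the parental ones. Every knockout library was above every parental one, and the fold was 2.53 (log2 fold change 1.34 ± 0.11, SE, 1.40 shallow and 1.19 deep; edgeR adjusted p = 9.60e-06). MMP14 (chr14:22836557-22849027), the membrane-bound collagenase that activates pro-MMP2, was 525, 513, 526, 429 and 436 CPM in the knockout libraries, against 347, 324, 316, 284 and 286 CPM in the parental ones. The groups did not overlap, and the fold was 1.56 (log2 fold change 0.64 ± 0.087, SE, 0.66 shallow and 0.58 deep; edgeR adjusted p = 2.20e-04). Both genes were lower in the deep than in the shallow libraries of their genotype. Per kilobase of exon, MMP2 was the most abundant member, at 294 CPM in knockout and 116 in parental cells, except that ADAMTS1 stood above it in parental cells; MMP14 was at 109 and 69.7.

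Of the other membrane-type MMPs, MMP15, MMP17 and MMP25 rose, and MMP16 and MMP24 did not pass. MMP15, a transmembrane relative of MMP14, was 26.3, 24.9, 23.6, 17.3 and 15.8 CPM in the knockout libraries, against 11.7, 9.66, 9.80, 7.27 and 7.03 CPM in the parental ones (log2 fold change 1.25 ± 0.19, SE, 1.25 shallow and 1.20 deep; edgeR adjusted p = 4.39e-04). Its groups did not overlap. MMP17 and MMP25, which are held in the membrane by a lipid anchor, were at low levels. MMP17 was 1.19, 1.10, 1.37, 0.615 and 0.628 CPM in the knockout libraries, against 0.630, 0.353, 0.424, 0.412 and 0.333 CPM in the parental ones (log2 fold change 1.18 ± 0.28, SE, 1.36 shallow and 0.72 deep; edgeR adjusted p = 0.00721). Its 2 deep knockout libraries lay within the parental range, which reached 0.630 CPM in replicate 1. MMP25 was 1.75, 1.44, 1.74, 1.04 and 0.987 CPM in the knockout libraries, against 0.913, 0.936, 0.955, 0.574 and 0.553 CPM in the parental ones (log2 fold change 0.83 ± 0.24, SE, 0.81 shallow and 0.83 deep; edgeR adjusted p = 0.0195), with ranges that did not overlap. The MMP25 call was lost without knockout replicate 1 (adjusted p = 0.0536) or 3 (0.0513), and 1454 exon bases are shared with its antisense gene MMP25-AS1. MMP16, another transmembrane type, averaged 33.6 ± 12.1 CPM in knockout and 22.7 ± 6.13 CPM in parental cells and did not pass over all libraries (edgeR adjusted p = 0.118), but it did with the replicate block (7.11e-05), its log2 fold change being 0.43 among shallow and 0.66 among deep libraries. MMP24 averaged 0.601 ± 0.111 CPM in knockout and 0.447 ± 0.207 CPM in parental cells (edgeR adjusted p = 0.266; 0.0622 with the block), and it passed without parental replicate 2 (0.0279) and with limma-voom (0.0380). Its log2 fold change was 0.15 among shallow libraries (0.762) and 0.83 among deep ones, where it passed (1.22e-04), and 799 of its exon bases overlap MMP24OS.

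Of the secreted MMPs outside the collagenase cluster, MMP11, MMP19 and MMP28 rose. MMP19 was 3.09, 4.52, 3.84, 3.08 and 3.36 CPM in the knockout libraries, against 1.92, 2.56, 2.05, 2.14 and 2.32 CPM in the parental ones (log2 fold change 0.70 ± 0.13, SE, 0.80 shallow and 0.51 deep; edgeR adjusted p = 0.00192). The lowest knockout library was above the highest parental one. On the opposite strand, 814 exon bases of MMP19 overlap TMEM198B and 218 of MMP11 overlap CHCHD10. MMP11 (stromelysin-3), which is activated inside the cell by furin, averaged 0.891 ± 0.318 CPM in knockout and 0.221 ± 0.0669 CPM in parental cells (log2 fold change 2.04 ± 0.31, SE, 2.01 shallow and 1.95 deep; edgeR adjusted p = 4.71e-04). MMP28 (epilysin) rested on few counts, 156 over the knockout and 20 over the parental libraries, 2 of which had 0. It met the filter's minimum in 5 knockout and 0 parental libraries, so it was tested only through the genotype where it was high. Its fitted log2 fold change was 3.35 ± 0.50 (SE, edgeR adjusted p = 4.12e-04) and is a description. MMP21, known for its role in left-right patterning, was under 0.4 CPM in all libraries and did not pass (adjusted p = 0.134; 0.00894 with the block).

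**Figure D2:**
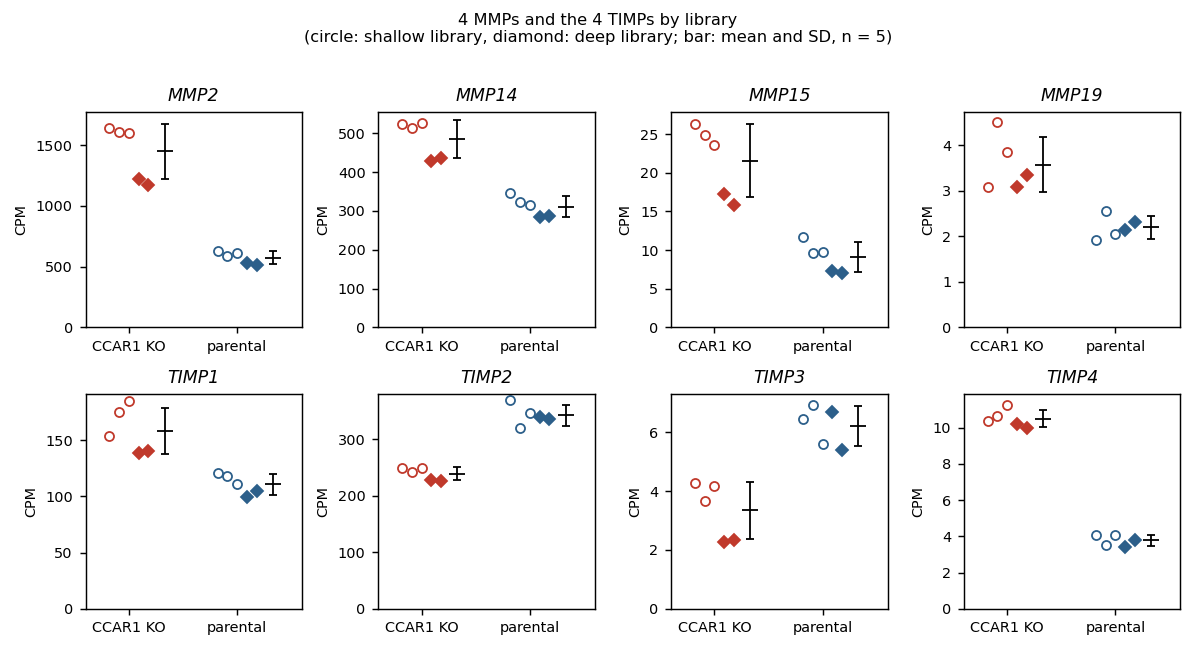
CPM of MMP2, MMP14, MMP15, MMP19 and the 4 TIMPs in each library, knockout left and parental right, circles for shallow and diamonds for deep libraries, with mean and SD (n = 5) as bars. The groups are apart in all 8 panels, with TIMP2 and TIMP3 lower and the other genes higher in knockout cells. Ranges were apart for 7 of 13 MMP genes and 4 of 4 TIMPs tested, against 30.6% of all genes tested.

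MMP1, the interstitial collagenase, and MMP3, the stromelysin that can activate it, lie close together on chromosome 11 (chr11:102789920-102798160 and chr11:102835801-102843803), and both turned on 1 parental library. MMP1 was 6.48, 7.14, 6.74, 8.47 and 12.3 CPM in the knockout libraries, against 0.441, 0.742, 0.566, 8.64 and 1.97 CPM in the parental ones. Parental replicate 4 was above 4 of the 5 knockout libraries, and the other parental libraries were below all of them. MMP3 was 2.64, 2.02, 2.62, 3.61 and 4.58 CPM in the knockout libraries, against 0.157, 0.353, 0.230, 4.11 and 0.502 CPM in the parental ones, with the same parental library high. Neither passed over all libraries (log2 fold change 1.70 ± 0.76, SE, 3.54 shallow and 0.93 deep; edgeR adjusted p = 0.108 for MMP1; log2 fold change 1.48 ± 0.81, SE, 3.29 shallow and 0.79 deep; edgeR adjusted p = 0.189 for MMP3). Without parental replicate 4 the log2 fold changes were 3.09 (edgeR adjusted p = 7.13e-04) for MMP1 and 3.26 (1.66e-04) for MMP3. Both passed with the replicate block (0.0387 and 0.0461) and with limma-voom (0.0303 and 0.0444). Parental replicate 4 also stood apart in fibroblast markers, whose sum was 49.6 to 60.3 CPM in the deep knockout libraries, 91.5 CPM in that library and 46.4 CPM in parental replicate 5. The part of that in the MMP1 and MMP3 values was not tested. Reads of the 150 exon bases that MMP1 shares with WTAPP1 cannot be assigned to either with certainty.

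**Figure D3:**
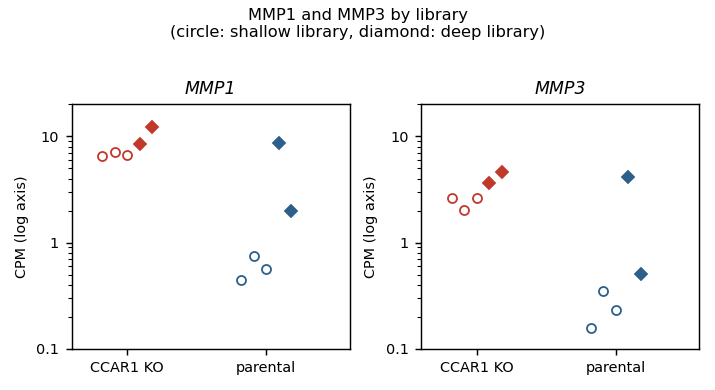
CPM of MMP1 and MMP3 in each library on a log axis, knockout left and parental right, with circles for shallow and diamonds for deep libraries. Parental replicate 4, at 8.64 CPM for MMP1 and 4.11 CPM for MMP3, lies among the knockout libraries, and the other 4 parental libraries lie below them.

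The other genes of this cluster, MMP7, MMP20, MMP27, MMP8, MMP10, MMP12 and MMP13, had too few counts to test, as had MMP9 and MMP26. MMP9 is gelatinase B, the closest relative of MMP2, and MMP10 the stromelysin whose promoter window is printed above. Over the 5 libraries of each genotype MMP9 had 15 counts in knockout and 17 in parental cells, and MMP10 17 and 9. These counts are too few to show a difference.

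The 4 TIMPs passed the test in opposite directions: TIMP1 and TIMP4 rose, and TIMP2 and TIMP3 fell. Of all genes tested 36.6% were called, and 61.2% with the replicate block, so these 4 calls are a description. TIMP1 (chrX:47582313-47586789), which inhibits most soluble MMPs but MMP14 only weakly, was 153, 175, 184, 139 and 140.0 CPM in the knockout libraries, against 120.3, 118, 111, 99.0 and 104 CPM in the parental ones (log2 fold change 0.52 ± 0.10, SE, 0.54 shallow and 0.44 deep; edgeR adjusted p = 0.00184). TIMP4 (chr3:12153051-12159351), an inhibitor with a narrow tissue range, was 10.4, 10.7, 11.2, 10.2 and 9.99 CPM in the knockout libraries, against 4.05, 3.52, 4.05, 3.43 and 3.80 CPM in the parental ones (log2 fold change 1.48 ± 0.078, SE, 1.47 shallow and 1.47 deep; edgeR adjusted p = 2.92e-07). For both, each knockout library was above every parental one.

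TIMP2 (chr17:78852977-78925387), the inhibitor that also takes part in pro-MMP2 activation, was 249, 242, 249.7, 228 and 226 CPM in the knockout libraries, against 369, 319.6, 347, 339 and 335 CPM in the parental ones (log2 fold change -0.52 ± 0.058, SE, -0.49 shallow and -0.59 deep; edgeR adjusted p = 6.07e-05). The median log2 fold change of chromosome 17 was -0.28, and with chromosome medians removed the fold change of TIMP2 was -0.24 and still passed (edgeR adjusted p = 0.00983). TIMP3 (chr22:32801701-32863043), which is bound to the matrix and inhibits ADAM17 and the aggrecanases as well as MMPs, was 4.28, 3.66, 4.17, 2.28 and 2.35 CPM in the knockout libraries, against 6.44, 6.94, 5.60, 6.70 and 5.42 CPM in the parental ones (log2 fold change -0.90 ± 0.19, SE, -0.66 shallow and -1.41 deep; edgeR adjusted p = 0.00433). Every knockout library was below every parental one, and the deep knockout libraries were lowest; the difference of the fold changes between depths was not tested. Summed over the 4 inhibitors, the level was 378 to 450 CPM in knockout and 448 to 500 CPM in parental libraries, ranges that just met. Per kilobase of exon TIMP1 was at 103 CPM in knockout and 71.8 in parental cells and TIMP2 at 42.4 and 60.7, so TIMP1 stood above TIMP2 in both. TIMP4 was at 6.36 and 2.28 and TIMP3 at 0.727 and 1.35. TIMP1, TIMP3 and TIMP4 lie within the synapsin genes SYN1, SYN3 and SYN2 on the opposite strand, and 170 exon bases of TIMP4 overlap SYN2.

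ADAMTS genes moved in both directions, with ADAMTS5 the member that fell most and ADAMTS2 the one that rose most after the sparse MMP28. Of 14 tested, 7 rose, 2 fell and 5 did not pass (64.3% called, against 36.6% of all genes). With the replicate block 8 were higher and 3 lower, against 61.2% of all genes called. These counts include ADAMTS13, which met the filter's minimum in every knockout but only 1 parental library, so they are a description. The summed level was 468 to 572 CPM in knockout and 938 to 1218 CPM in parental libraries, and ADAMTS1 held most of it.

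The 2 genes that fell were neighbours on chromosome 21, whose median log2 fold change was 5.73e-04. ADAMTS1 (chr21:26835747-26845409), which cuts versican and aggrecan, was 316, 321, 319, 362 and 388 CPM in the knockout libraries, against 814, 1018, 953, 1053 and 1028 CPM in the parental ones. It was 2.85-fold lower in knockout cells, with no overlap (log2 fold change -1.51 ± 0.091, SE, -1.55 shallow and -1.49 deep; edgeR adjusted p = 7.59e-07). ADAMTS5 (chr21:26917912-26966513), a main aggrecan-cutting enzyme of cartilage, lies 72502 bases away on the same strand and was 0.726, 0.770, 0.611, 1.03 and 0.940 CPM in the knockout libraries, against 14.4, 16.4, 16.0, 22.4 and 20.8 CPM in the parental ones. Its counts over 5 libraries were 781 in knockout and 17843 in parental cells, a level 21.7-fold lower in knockout cells (log2 fold change -4.44 ± 0.19, SE, -4.48 shallow and -4.47 deep; edgeR adjusted p = 8.29e-08). ADAMTS4, the other classical aggrecanase, lies on chromosome 1 and was 0.335, 1.71, 0.234, 0.169 and 0.143 CPM in the knockout libraries, against 0.441, 0.406, 0.283, 0.169 and 0.163 CPM in the parental ones; it did not pass (edgeR adjusted p = 0.428), and its 1 high value came from knockout replicate 2, which also had the highest sum of erythroid markers, 190 CPM. Without that library its log2 fold change was -0.43 (adjusted p = 0.493). The part of the erythroid markers in the ADAMTS4 value was not tested.

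The procollagen N-proteinases ADAMTS2 and ADAMTS14, which remove the amino-terminal propeptide of fibrillar procollagens, rose most. ADAMTS2 (chr5:179110851-179345430) was 21.5, 19.1, 21.7, 19.3 and 19.1 CPM in the knockout libraries, against 2.42, 3.00, 2.99, 3.45 and 2.88 CPM in the parental ones, 6.82-fold higher in knockout cells (log2 fold change 2.77 ± 0.10, SE, 2.88 shallow and 2.58 deep; edgeR adjusted p = 2.44e-08). ADAMTS14 (chr10:70672803-70762441) was 2.27, 2.23, 2.69, 1.97 and 1.73 CPM in the knockout libraries, against 0.283, 0.406, 0.354, 0.389 and 0.305 CPM in the parental ones (log2 fold change 2.65 ± 0.16, SE, 2.78 shallow and 2.39 deep; edgeR adjusted p = 7.91e-07). Groups were far apart for both. ADAMTS3, their relative that acts on the growth factor VEGF-C, averaged 1.92 ± 0.404 CPM in knockout and 1.77 ± 0.255 CPM in parental cells and did not pass (edgeR adjusted p = 0.625).

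ADAMTS10, which binds fibrillin microfibrils, was 14.2, 11.9, 16.7, 10.6 and 9.95 CPM in the knockout libraries, against 4.64, 5.55, 4.95, 3.67 and 3.42 CPM in the parental ones (log2 fold change 1.51 ± 0.18, SE, 1.49 shallow and 1.51 deep; edgeR adjusted p = 9.76e-05). ADAMTS7, which cuts cartilage oligomeric matrix protein, was 3.48, 3.10, 3.72, 2.28 and 2.10 CPM in the knockout libraries, against 1.12, 0.866, 1.27, 0.899 and 0.876 CPM in the parental ones (log2 fold change 1.54 ± 0.19, SE, 1.65 shallow and 1.28 deep; edgeR adjusted p = 1.35e-04). Both were higher in every knockout library than in any parental one, and both were lower in deep than in shallow knockout libraries. ADAMTS16 rose by little, with 15.4, 14.8, 15.7, 18.2 and 18.0 CPM in the knockout libraries, against 11.0, 12.7, 13.5, 14.4 and 14.3 CPM in the parental ones (log2 fold change 0.32 ± 0.10, SE, 0.30 shallow and 0.32 deep; edgeR adjusted p = 0.0244). That call was lost without filtering low counts (adjusted p = 0.123) and without knockout replicate 4 (0.0600), knockout replicate 5 (0.0550) or parental replicate 2 (0.0584). Below 1 CPM, 2 more members rose, ADAMTS13 and ADAMTS15. ADAMTS13, the protease of von Willebrand factor, averaged 0.383 ± 0.0907 CPM in knockout and 0.103 ± 0.0495 CPM in parental cells (log2 fold change 1.88 ± 0.33, SE, 1.95 shallow and 1.69 deep, edgeR adjusted p = 0.00121). It met the filter's minimum in every knockout but only 1 parental library. ADAMTS15, which cuts versican, averaged 0.630 ± 0.0945 CPM in knockout and 0.259 ± 0.103 CPM in parental cells (log2 fold change 1.29 ± 0.25, SE, 1.17 shallow and 1.41 deep, edgeR adjusted p = 0.00206).

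ADAMTS6, ADAMTS9 and ADAMTS12 did not pass over all libraries. ADAMTS12, which like ADAMTS7 cuts cartilage oligomeric matrix protein, averaged 64.8 ± 10.7 CPM in knockout and 51.9 ± 5.86 CPM in parental cells (edgeR adjusted p = 0.0628; 1.61e-04 with the replicate block; 0.0438 without knockout replicate 2). ADAMTS6, the closest relative of ADAMTS10, averaged 40.6 ± 8.51 CPM in knockout and 50.2 ± 8.11 CPM in parental cells (edgeR adjusted p = 0.158; 1.35e-04 with the block), with a log2 fold change of -0.31. ADAMTS9 was under 1 CPM (edgeR adjusted p = 0.425). Its log2 fold change was 0.10 among shallow libraries and 0.95 among deep ones, where it passed (0.00129).

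**Figure D4:**
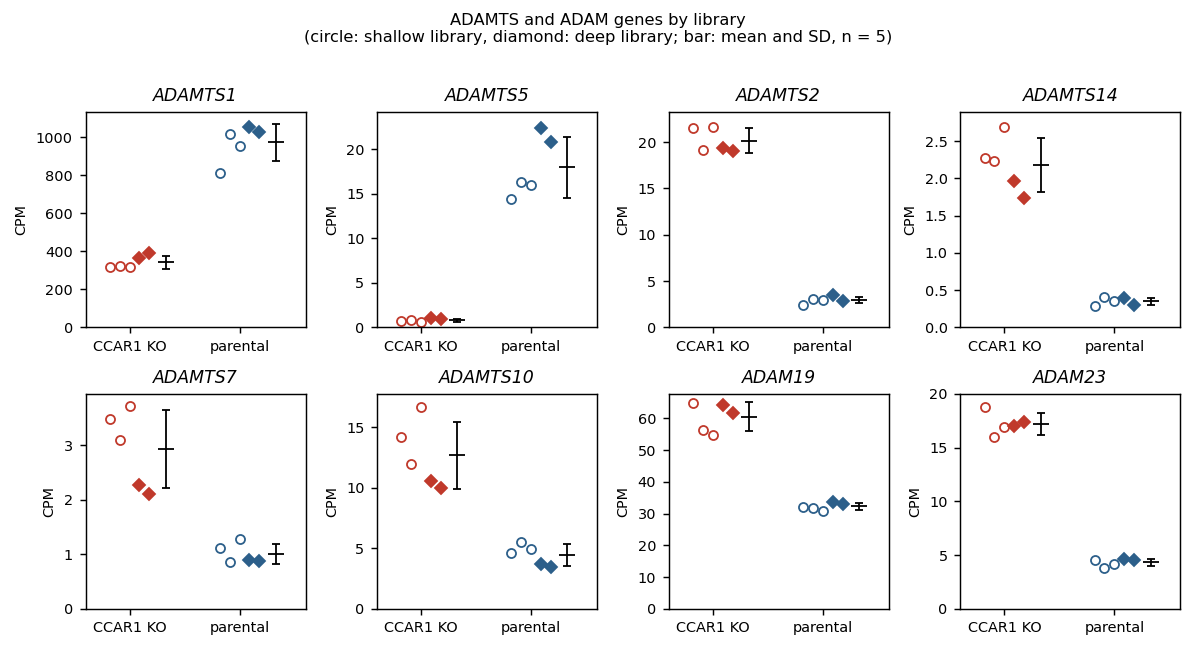
CPM of 6 ADAMTS and 2 ADAM genes in each library, knockout left and parental right, circles for shallow and diamonds for deep libraries, with mean and SD (n = 5) as bars. ADAMTS1 and ADAMTS5 are lower and the other 6 genes higher in knockout cells, with no overlap between genotypes. Ranges were apart for 9 of 14 ADAMTS and 3 of 12 ADAM genes tested, against 30.6% of all genes tested.

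Of 12 ADAM genes tested, 3 rose, 2 fell and 7 did not pass, so 41.7% were called, near the 36.6% of all genes, and the median log2 fold change was 0.21. With the replicate block 6 were higher and 5 lower, against 61.2% of all genes called. Summed levels were 791 to 975 CPM in knockout and 891 to 1051 CPM in parental libraries.

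ADAM23 and ADAM19 rose, with no overlap between genotypes. ADAM23 (chr2:206443539-206621130), which has no active protease and binds LGI1 on neurons, was 18.8, 16.0, 16.9, 17.0 and 17.4 CPM in the knockout libraries, against 4.53, 3.83, 4.15, 4.63 and 4.54 CPM in the parental ones, 3.96-fold higher in knockout cells (log2 fold change 1.99 ± 0.079, SE, 2.04 shallow and 1.89 deep; edgeR adjusted p = 4.57e-08). ADAM19 (chr5:157395534-157575775), an active protease that can release neuregulin, was 65.0, 56.4, 54.9, 64.2 and 61.9 CPM in the knockout libraries, against 32.2, 31.9, 30.7, 33.7 and 32.9 CPM in the parental ones (log2 fold change 0.91 ± 0.066, SE, 0.89 shallow and 0.90 deep; edgeR adjusted p = 3.04e-06). ADAM22, the relative of ADAM23 that also binds LGI1 and lacks protease activity, fell: it was 6.51, 6.64, 5.89, 7.83 and 7.37 CPM in the knockout libraries, against 9.40, 8.22, 8.86, 10.9 and 10.3 CPM in the parental ones (log2 fold change -0.48 ± 0.11, SE, -0.48 shallow and -0.50 deep; edgeR adjusted p = 0.00495). It lies on chromosome 7, which had a median of -0.30, and with chromosome medians removed the fold change was -0.18 and did not pass (edgeR adjusted p = 0.232). ADAM11, the remaining inactive relative, averaged 0.777 ± 0.250 CPM in knockout and 0.536 ± 0.115 CPM in parental cells (adjusted p = 0.107; 0.0308 with the replicate block and 0.0228 with chromosome medians removed, which took its log2 fold change to 0.82; edgeR).

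ADAM12, which can cut insulin-like growth factor binding proteins, was 119, 106, 106, 127 and 128 CPM in the knockout libraries, against 92.2, 92.2, 93.4, 106 and 104 CPM in the parental ones (log2 fold change 0.27 ± 0.078, SE, 0.25 shallow and 0.26 deep; edgeR adjusted p = 0.0220). ADAM15, an active protease with an integrin-binding loop, was 186, 187, 182, 152 and 153 CPM in the knockout libraries, against 240.4, 216, 215, 186 and 194 CPM in the parental ones (log2 fold change -0.29 ± 0.093, SE, -0.29 shallow and -0.34 deep; edgeR adjusted p = 0.0305). Both changes were small, and the ranges of both genes overlapped in part. ADAM12 lost its call without knockout replicate 4 or any 1 of parental replicates 1 to 3 (edgeR adjusted p = 0.0525 to 0.0587), and without filtering (0.137). ADAM15 lost its call without knockout replicate 4 or 5 or any 1 of parental replicates 1 to 3 (0.0603 to 0.0691). With chromosome medians removed the log2 fold change of ADAM12 was 0.44.

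The main sheddases did not pass over all libraries. ADAM10, the protease that cuts Notch receptors and amyloid precursor protein, averaged 97.1 ± 18.3 CPM in knockout and 111 ± 17.6 CPM in parental cells (edgeR adjusted p = 0.363; 0.00150 with the replicate block). ADAM17, which releases tumour necrosis factor and ligands of the EGF receptor, averaged 36.3 ± 7.98 CPM in knockout and 32.6 ± 6.51 CPM in parental cells (0.543 by edgeR; 0.0375 with the block), and 1323 of its exon bases overlap IAH1. ADAM9, the most abundant ADAM gene per kilobase of exon at 54.3 CPM in knockout and 67.7 in parental cells, averaged 375 ± 57.3 CPM in knockout and 468 ± 61.1 CPM in parental cells (0.0638; 5.78e-05 with the block). It passed with DESeq2 (0.0204) and without knockout replicate 4 (0.0400), knockout replicate 5 (0.0330) or parental replicate 2 (0.0463). The pooled log2 fold changes of ADAM9, ADAM10 and ADAM17 were within 0.32 of 0. Fitted within 1 depth, ADAM9 passed at -0.35 shallow (edgeR adjusted p = 2.05e-04) and -0.31 deep (3.74e-08). ADAM10 likewise passed at -0.22 shallow (0.00479) and -0.17 deep (8.97e-06). ADAM17 did not pass at 0.14 shallow (0.153) but did at 0.15 deep (8.08e-05). Of all genes, 52.7% were called in the shallow fit and 57% in the deep one. ADAM8 and ADAM32, both near 1 or 2 CPM, passed with the block (0.0109 higher and 0.0188 lower, edgeR). ADAM8 also passed with chromosome medians removed (0.0449) and ADAM32 with DESeq2 (0.0488). ADAM33 did not pass (adjusted p = 0.587).

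In all, 25 rows were not tested: 9 MMP, 11 ADAM and 5 ADAMTS. Among them are ADAM2, ADAM18, ADAM20, ADAM21, ADAM29 and ADAM30, most of which are known from testis, and ADAM28 and ADAM7, known from lymphocytes and the epididymis. The highest count of any of them in 1 library was 43, for ADAM29 in libraries of up to 385.4 M counts. Without a filter on low counts ADAMTS19 passed (log2 fold change -3.41, edgeR adjusted p = 0.0434) on 1 count in knockout and 19 in parental libraries.

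Within each depth the members kept their sign with 1 exception. Of 41 members that could be fitted in both depths, 40 had fold changes of the same sign, the exception being ADAMTS4, and all 26 members called over all libraries did. The 26 were called from these same libraries, so their shared sign follows in part from the call. The share of all genes with the same sign was not counted, so these counts are a description. In the shallow libraries alone 24 of 41 members tested were called higher and 9 lower (against 52.7% of all genes called there), and in the deep libraries alone 28 and 10 of 50 (against 57%). The median log2 fold change was 0.54 among shallow and 0.57 among deep libraries. MMP28 was at 4.24 among shallow and 2.68 among deep libraries and ADAMTS4 at 0.99 and -0.11, and the values of MMP1, MMP3, ADAMTS9 and TIMP3 within each depth are given above.

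**Figure D5:**
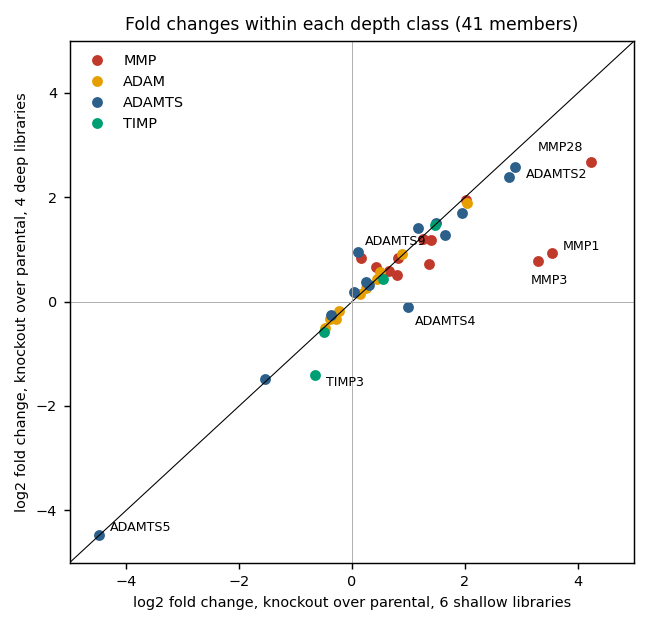
Log2 fold change of knockout over parental cells in the 6 shallow libraries (x axis) and in the 4 deep libraries (y axis) for 41 members, coloured by family; the line marks equal values. Most points follow the line, MMP1, MMP3 and MMP28 lie below it, and ADAMTS4 changes sign.

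Genes that act with these proteases were counted in 7 lists. Of 105 genes 87 were tested, and 24 rose, 14 fell and 49 did not pass (43.7% called, against 36.6% of all genes). With the replicate block 38 were higher and 21 lower, against 61.2% of all genes called. In the plasminogen system and the proprotein convertases, which activate MMP precursors, 5 of 15 rose and 2 fell (46.7% called, against 36.6% of all genes). PLAT (tissue plasminogen activator) averaged 137 ± 12.6 CPM in knockout and 36.0 ± 4.11 CPM in parental cells (log2 fold change 1.92 ± 0.10, SE, 1.94 shallow and 1.86 deep; edgeR adjusted p = 2.34e-07), and PLAU (urokinase) 106 ± 3.65 CPM in knockout and 56.0 ± 0.563 CPM in parental cells (log2 fold change 0.93 ± 0.049, SE, 0.93 shallow and 0.89 deep; edgeR adjusted p = 3.10e-07). Their inhibitors moved apart: SERPINE2 averaged 164 ± 5.56 CPM in knockout and 70.0 ± 8.26 CPM in parental cells (log2 fold change 1.23 ± 0.082, SE, 1.32 shallow and 1.07 deep; edgeR adjusted p = 1.70e-06), whereas SERPINB2 averaged 0.270 ± 0.0881 CPM in knockout and 6.76 ± 2.61 CPM in parental cells (log2 fold change -4.61 ± 0.39, SE, -4.51 shallow and -4.78 deep; edgeR adjusted p = 8.86e-06). Among other inhibitors and cell-surface partners 3 of 11 rose and none fell (27.3% called, below the 36.6% of all genes). SPOCK1, a proteoglycan with a protease-inhibiting domain, was 1 of them (log2 fold change 1.41 ± 0.10, SE, 1.41 shallow and 1.39 deep, edgeR adjusted p = 2.28e-06). The others were the serine protease inhibitor TFPI2 (0.52 ± 0.064, 0.55 shallow and 0.44 deep, 1.16e-04) and LRP1, the receptor that clears MMPs and ADAMTS enzymes (0.56 ± 0.077, 0.41 shallow and 0.76 deep, 2.28e-04).

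Of 9 partners of ADAM10 and ADAM17, TSPAN10 rose (log2 fold change 2.08 ± 0.21, SE; edgeR adjusted p = 3.54e-05) and TSPAN14 fell (-0.18 ± 0.05; 0.0166); both are tetraspanins that accompany ADAM10. These calls were 22.2% of that list, below the 36.6% of all genes. The TSPAN14 call was lost with chromosome medians removed (0.972), with library size alone (0.113) and with no filter (0.122). Of 11 ADAMTS-like, astacin and pappalysin genes 7 rose and 2 fell (81.8% called, against 36.6% of all genes). PCOLCE2, an enhancer of procollagen C-proteinase, averaged 42.3 ± 2.43 CPM in knockout and 15.2 ± 0.700 CPM in parental cells (log2 fold change 1.48 ± 0.063, SE, 1.57 shallow and 1.32 deep; edgeR adjusted p = 7.79e-08). PAPPA2, a protease of insulin-like growth factor binding proteins, averaged 5.42 ± 1.28 CPM in knockout and 0.918 ± 0.263 CPM in parental cells (log2 fold change 2.55 ± 0.24, SE, 2.52 shallow and 2.59 deep; edgeR adjusted p = 1.87e-05). ADAMTSL1, which has no protease domain, also rose (log2 fold change 0.73 ± 0.049, SE, 0.67 shallow and 0.78 deep; edgeR adjusted p = 1.67e-06), and ADAMTSL5 fell, averaging 0.249 ± 0.0989 CPM in knockout and 1.61 ± 0.456 CPM in parental cells (log2 fold change -2.75 ± 0.32, SE, -2.61 shallow and -2.95 deep; edgeR adjusted p = 8.67e-05).

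Among matrix proteins listed as ADAMTS substrates or partners 4 of 10 rose and 1 fell (50% called, against 36.6% of all genes). Versican (VCAN), a substrate of ADAMTS1 and ADAMTS5, averaged 187 ± 68.9 CPM in knockout and 85.7 ± 17.6 CPM in parental cells (log2 fold change 1.12 ± 0.24, SE, 0.90 shallow and 1.31 deep; edgeR adjusted p = 0.00446). The fibrillins moved apart, FBN1 with 236 ± 53.7 CPM in knockout and 129.6 ± 14.3 CPM in parental cells (log2 fold change 0.87 ± 0.15, SE, 0.71 shallow and 1.01 deep; edgeR adjusted p = 0.00107) and FBN2 with 43.1 ± 12.2 CPM in knockout and 85.1 ± 10.0 CPM in parental cells (log2 fold change -0.98 ± 0.18, SE, -1.19 shallow and -0.78 deep; edgeR adjusted p = 0.00155). Brevican (BCAN) was under 1 CPM and rose (log2 fold change 1.21 ± 0.22, SE, 1.24 shallow and 1.09 deep; edgeR adjusted p = 0.00168). Of 16 membrane proteins that ADAMs release, 3 rose and 4 fell (43.8% called, against 36.6% of all genes). The EGF receptor ligands EGF, higher (log2 fold change 2.45 ± 0.24, SE, 2.14 shallow and 2.93 deep; edgeR adjusted p = 2.43e-05), and AREG, lower (log2 fold change -1.26 ± 0.12, SE, -1.26 shallow and -1.29 deep; edgeR adjusted p = 2.36e-05), differed in direction; HBEGF was slightly lower (log2 fold change -0.29 ± 0.063, SE, -0.26 shallow and -0.35 deep; edgeR adjusted p = 0.00459) and the receptor IL6R higher (log2 fold change 0.73 ± 0.10, SE, 0.71 shallow and 0.73 deep; edgeR adjusted p = 3.07e-04). Of 16 AP-1, ETS and related regulators 5 were called (31.2%, below the share of all genes). FOSB rose, averaging 4.67 ± 1.86 CPM in knockout and 1.43 ± 0.264 CPM in parental cells (log2 fold change 1.70 ± 0.24, SE, 2.09 shallow and 1.07 deep, edgeR adjusted p = 3.34e-04). The 4 genes that fell were RUNX2, ETV4, ETS1 and FOSL1. RUNX2, ETV4 and ETS1 had log2 fold changes of -0.70, -0.63 and -0.38 (edgeR adjusted p = 3.60e-04, 5.73e-04 and 0.00716). FOSL1, like FOSB an AP-1 gene, averaged 611 ± 118 CPM in knockout and 831 ± 115 CPM in parental cells, with ranges that overlapped (log2 fold change -0.44 ± 0.14, SE, -0.40 shallow and -0.57 deep, edgeR adjusted p = 0.0333). With chromosome medians removed the fold changes of RUNX2, ETV4 and TFPI2 were -0.38, -0.35 and 0.81, and all 3 still passed.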

How the data were processed

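Messenger RNA was enriched with oligo(dT) beads and sequenced on an Illumina NovaSeq, per the labels' protocols. The authors deposited 1 table of expected counts per gene, estimated with kallisto 0.48.0 on hg38, per the submitters' processing notes; no source used here gives the annotation release or a strand setting. The deposited counts were rounded to whole numbers and tested with edgeR 4.0.16 in R 4.3.3: TMM scaling, filterByExpr by genotype, the robust quasi-likelihood test with genotype as the term, and Benjamini-Hochberg adjustment over the 18979 genes that passed. Shallow and deep beside a fold change give it in the libraries of that depth alone. Where an adjusted p is printed with no other tool, it comes from that edgeR fit. The threshold was 0.05. CPM are counts per 1000000 of the scaled library size. Exact two-sided permutation tests of log2 CPM used all 252 arrangements of the libraries.

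Positions and exon lengths are from GENCODE on GRCh38, and 67 of the 68 rows had one by gene ID. Reads were not counted with a stated strand, so overlapping genes share uncertain counts. Replicates of a genotype and depth differed by more than sampling noise (6.95 to 26.5 chi-square units per gene), so all were kept. Samples of the same replicate number deviated together from the means of their genotypes (correlations 0.586 to 0.898). These deviations include the difference between the depths, and samples of unlike number were not compared. The correlations therefore cannot show whether the numbers pair the samples. Alternatives were the replicate block, depth as a term, each depth alone, other scalings and filters, DESeq2 1.42.0, limma-voom (limma 3.58.1), chromosome medians removed and leaving out each library. The edgeR script was tested on simulated data. Named genes were all TIMPs, MMP1, MMP2, MMP14, ADAM9, ADAM10, ADAM15, ADAM17 and ADAMTS1, every member past the threshold, and up to 4 genes a list with the smallest adjusted p; other members are given by range or mean. The promoter windows shown, ADAMTS19 and FOSL1 were chosen after their values were seen. The members and lists were chosen with earlier results of these data known.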

Additional observations from a re-analysis of the deposited data

Results flagged for a closer look

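Members were examined for a library that stood apart from the other 4 of its genotype, by a gap to the nearest library over 0.71 of the group's range (Dixon's 95% value for 5 samples). Of 86 groups tested, 5 passed. Chance flags about 1 in 20 groups where values are independent draws from 1 normal distribution. Each group here mixes shallow and deep libraries, and the groups share libraries, so that rate may not apply. MMP24 had its lowest knockout value in replicate 1, 0.409 CPM, with the next at 0.611 CPM (ratio 0.725). ADAMTS4 had its highest knockout value in replicate 2, 1.71 CPM, with the next at 0.335 CPM (0.877). MMP1 was at 8.64 CPM in parental replicate 4, with the next at 1.97 CPM (0.813), and MMP3 at 4.11 CPM in the same library, with the next at 0.502 CPM (0.913). ADAMTS15 had its highest parental value in replicate 1, 0.441 CPM, with the next at 0.241 CPM (0.793).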

How the results depend on the processing

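The main limits are the split into shallow and deep libraries, the unstated origin of the replicates and the small counts of members under 1 CPM, where depth limits what can be seen. Over 21 alternatives the 43 members gave 887 values, of which 809 had the direction and side of the threshold of the reported value, 17 lost a call, 59 gained one and 2 changed sign. Of 26 members called, 21 kept their call in each alternative that tested them; the others were MMP25, ADAM12, ADAM15, ADAM22 and ADAMTS16. ADAMTS4 changed sign in the deep libraries alone (-0.11) and without knockout replicate 2 (-0.43), against up to 1.08 without another library.

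With the replicate block, 10 members were lower (6 without it), all genes gave 5906 higher and 5713 lower, and the other pathway genes 38 higher. The block lost no called member. With depth as a term, 10 members were lower, all genes gave 6200 higher and 5949 lower, and the pathway genes 39 higher and 22 lower. The shallow libraries alone gave 4931 lower genes in all and 38 higher pathway genes. The deep libraries alone gave 10 lower members, 7775 higher and 7545 lower genes in all, and 37 higher and 28 lower pathway genes. The cause of these differences was not tested. Leaving out each library in turn gave 17 to 22 higher and 5 to 6 lower members. Without knockout replicate 4 MMP28 was not tested.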
